A study of Mus musculus with 6 samples.

Results

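The SR family splicing factors are RNA-binding proteins that carry a domain rich in arginine and serine, and 10 genes of the family (Srsf1, Srsf2, Srsf3, Srsf4, Srsf5, Srsf6, Srsf7, Srsf9, Srsf10 and Srsf11) were taken by name from the 55487 genes of one table of normalized RNA-seq counts. The table holds 6 libraries of mouse bone marrow cells, 3 from recipients given PBS and 3 from recipients given pIpC (a synthetic double-stranded RNA, polyinosinic-polycytidylic acid, to which cells respond with interferon). All 6 carried the same donor cells, C57BL/6 CD45.2(+) Mx1-Cre Brd9fl/fl cells transformed by the MLL-AF9 fusion oncogene (MA9), where the fusion was delivered by a retrovirus that also marks cells with GFP. They were transplanted into CD45.1(+) CD45.2(-) recipients. In this model the interferon-responsive Mx1 promoter drives Cre, which deletes exons of Brd9, a subunit of the non-canonical BAF chromatin remodeling complex, from the floxed alleles. The dose was 20 mg/kg in 3 injections every second day, and RNA was prepared 10 days after injection. Each recipient received 1000 cells, and the study's methods give the recipients' age as 6 weeks. The sources differ on irradiation (lethal, 2 fractions of 450 cGy, or sublethal), on the cells (GFP+ or c-Kit+) and on strand (unstranded or stranded libraries). No library had pIpC without floxed alleles, so the agent itself and the recombination it induces cannot be told apart. Whether the libraries of a group came from separate animals was not given in the sources used here, so p-values measure the spread between these libraries, which may be technical.

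SR proteins bind short enhancer sequences in exons through RNA recognition motifs and recruit the U1 and U2 particles to nearby splice sites through the arginine and serine repeats. Kinases of the SRPK and CLK families phosphorylate these repeats and set whether the proteins enter the nucleus and leave speckles, and several members also carry spliced mRNA to the cytoplasm. In blood cells the family is known for SRSF2, which is recurrently mutated in myelodysplastic syndromes, and many members limit their own amount by including a poison exon, whose early stop codon sends the transcript to nonsense-mediated decay.

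Transcripts annotated for nonsense-mediated decay were found for 9 of the 10 members (all but Srsf10) in GENCODE M21 on GRCm38. The gene counts sum such transcripts with the coding ones, so a change in a count cannot be assigned to either. The stretch from the start of the poison exon to its stop codon is shown for Srsf3 and Srsf7, a related pair described below, with the stop codon in capitals. The Srsf3 exon lies at chr17:29039454-29039909 on the plus strand and the Srsf7 exon at chr17:80204622-80205081 on the minus strand, both in GRCm38.
Srsf3: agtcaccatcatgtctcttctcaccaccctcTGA
Srsf7: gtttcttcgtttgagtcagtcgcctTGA

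The 250 bases before the RefSeq start (GRCm38.p6) are shown for Srsf6 and Srsf7, the members that passed the test below, and for Srsf1 and Srsf5, the members with the smallest fitted change. They lie at chr2:162931258-162931507 (plus strand), chr17:80207306-80207555 (minus), chr11:88047123-88047372 (plus) and chr12:80945249-80945498 (plus). Capitals mark CCGGAAG on either strand, a sequence that several ETS family factors bind.
Srsf6: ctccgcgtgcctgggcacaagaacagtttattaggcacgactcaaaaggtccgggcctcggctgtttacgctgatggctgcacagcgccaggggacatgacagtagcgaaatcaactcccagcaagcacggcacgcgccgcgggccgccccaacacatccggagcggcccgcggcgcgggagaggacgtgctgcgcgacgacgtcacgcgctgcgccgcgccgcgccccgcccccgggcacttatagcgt
Srsf7: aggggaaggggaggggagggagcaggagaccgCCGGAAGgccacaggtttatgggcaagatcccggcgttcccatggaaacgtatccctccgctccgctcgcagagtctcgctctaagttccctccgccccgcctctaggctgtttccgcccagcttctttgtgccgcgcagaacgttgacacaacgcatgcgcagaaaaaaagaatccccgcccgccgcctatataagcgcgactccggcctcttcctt
Srsf1: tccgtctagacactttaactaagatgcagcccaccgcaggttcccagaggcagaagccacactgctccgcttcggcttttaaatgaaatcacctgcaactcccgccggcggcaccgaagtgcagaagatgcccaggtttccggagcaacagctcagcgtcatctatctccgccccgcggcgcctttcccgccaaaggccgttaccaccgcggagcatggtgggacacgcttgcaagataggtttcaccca
Srsf5: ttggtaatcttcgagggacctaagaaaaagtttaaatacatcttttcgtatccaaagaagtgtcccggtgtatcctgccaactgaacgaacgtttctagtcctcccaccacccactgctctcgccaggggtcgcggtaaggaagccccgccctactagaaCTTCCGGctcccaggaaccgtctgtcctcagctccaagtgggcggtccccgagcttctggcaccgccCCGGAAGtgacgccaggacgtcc

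All 10 members matched the RefSeq promoter table. The letters CCGGAAG, searched on both strands, were present upstream of 4 of 10 members (Srsf4, Srsf5, Srsf7 and Srsf11), against 6.91% of 32851 mouse windows of the same length. A member was counted if any of its windows held the letters, whereas the percentages are per window. Srsf4 and Srsf11 had more than a single window each. CCAAT was present upstream of 3 members (33.8% of windows), TATAAA of 2 (12.4%), GGGCGG of 9 (32.7%) and the E-box CACGTG of none (6.02%). The members' windows were rich in G and C, between 56.8% and 78.0% against a median of 52.4% for all windows. The part of this base content in the motif counts was not tested. Srsf7, which passed the test, and Srsf5, which did not, both hold the ETS letters, while Srsf6 and Srsf1 do not.

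The recovered reads on genes ranged from 19277439 to 22378154 in the PBS libraries and from 22348517 to 23586722 in the libraries labelled pIpC. PBS replicate 3 stood apart from the other PBS libraries, with a median absolute log2 difference of 0.60 to 0.62 per gene, against 0.14 between PBS replicates 1 and 2 and 0.13 to 0.18 among the libraries labelled pIpC. In that library, relative to the other PBS libraries, the median was 0.61 on the log2 scale over the 5003 genes with the shortest exons and -0.46 over the 5002 with the longest. Results are therefore given with and without it, and the part of length in them was tested only as an alternative of the fit. The targeted gene Brd9 had normalized counts of 1927, 1946 and 1632 in PBS and 2036, 2263 and 2011 in the libraries labelled pIpC. Its log2 fold change was 0.20 with a standard error of 0.13 (limma, Benjamini-Hochberg adjusted p = 0.259), and 0.12 without PBS replicate 3 (adjusted p = 0.201 from limma). An exact permutation test of the 6 counts gave a two-sided p of 0.1, the smallest that 3 against 3 libraries allow. The count of Brd9 was therefore not below that of PBS in any library labelled pIpC, although a count over the whole gene includes exons outside the deleted ones, and every direction below is given by the label.

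Most of the marker genes tested differed between the groups. Hoxa9, Hoxa10 and Meis1, which MLL-AF9 sustains, were lower in the libraries labelled pIpC at log2 fold changes of -4.32, -6.38 and -4.01 (adjusted p at most 1.76e-05 from limma), whereas Kit, at -0.46, did not pass (adjusted p = 0.213 from limma). Without PBS replicate 3, Kit was at -0.77 and passed (adjusted p = 2.32e-05 from limma). The 7 neutrophil maturation markers were all higher, their summed normalized count rising from between 10340 and 28370 in PBS to between 1270193 and 1338089. All 6 erythroid markers used and all 8 B cell markers were higher, as were all 3 T and NK cell markers tested of 7. Among 6 macrophage markers 4 were higher and 2 lower, and of 5 leukocyte and myeloid markers 3 were higher. The summed count of the erythroid list was 19.0 to 27.2 in PBS and 1778 to 2527 in the libraries labelled pIpC, and that of the B cell list 136 to 304 and 1284 to 2321. For the T and NK list it was 174 to 302 and 3798 to 4423, and for the macrophage list 10244 to 14541 and 5680 to 7313. Of the erythroid markers used Slc4a1, and of the B cell markers Ms4a1, was at 0 in all 3 PBS libraries. In bulk samples, fewer cells of a type and less RNA per cell cannot be told apart, and the part of these markers in the SR family results was not tested.

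In these libraries, 2 of the 10 SR family members changed, Srsf6 and Srsf7, and both were lower in the libraries labelled pIpC. This share stands against 45.3% of the 15020 genes tested, with 20.4% called lower, at the same threshold (limma on log2(normalized count + 1), Benjamini-Hochberg adjusted p under 0.1). The fitted log2 fold change was below 0 in 8 of 10 members, with a median of -0.22, beside a median of 0.01 over all genes. The values of the groups did not overlap in 4 members, Srsf2, Srsf6, Srsf7 and Srsf9, all lower in the libraries labelled pIpC, against 56.8% of all genes and 26.3% in that direction. No member reached a fitted change of 1.5-fold, which 48.8% of all genes did. Both a change of that size and an adjusted p under 0.1 were reached by 38.4% of all genes and no member. The median size of the change was 0.24 for the members and 0.57 for all genes, and the median standard error 0.14 and 0.26. Srsf7, at -0.57, lay close to 1.5-fold. It passed both rules under some alternatives, among them quantile normalization (-0.61), edgeR (-0.60) and removal of the GC trend (-0.66). Without PBS replicate 3 (-0.44) or with the length trend removed (-0.53) it did not reach 1.5-fold.

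Without PBS replicate 3, 5 members passed, Srsf2, Srsf6, Srsf7, Srsf10 and Srsf11, all lower in the libraries labelled pIpC, against 65.4% of the genes tested and 30.3% in that direction. The median over the members was then -0.16 and over all genes 0.02, with 9 of 10 members below 0. Without pIpC replicate 2 or without pIpC replicate 3 no member passed in limma, the lowest adjusted p being 0.128 and 0.129, and 2 and 1 members had an unadjusted p under 0.05. Of all genes tested in these fits, 30.5% and 31.0% passed. With each library's trend with exon length removed, 4 members passed, Srsf6, Srsf7, Srsf10 and Srsf11, all lower, against 51.4% of all genes.

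**Figure D1:**
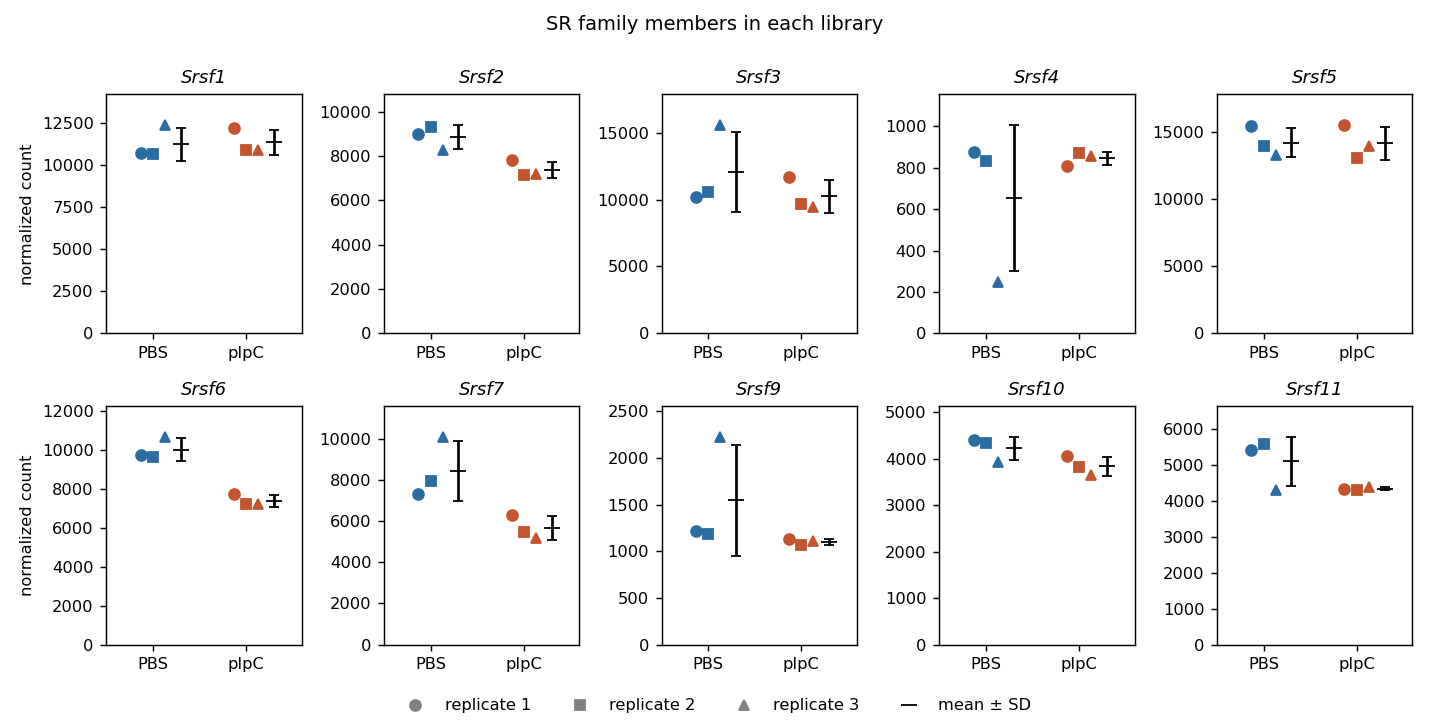
Normalized count of each SR family member (vertical axis, from 0) in the 3 PBS libraries and the 3 libraries labelled pIpC, with the marker shape giving the replicate and the bar giving mean ± SD. The groups are apart in Srsf2, Srsf6, Srsf7 and Srsf9, and PBS replicate 3 stands far from the other PBS libraries in Srsf3, Srsf4 and Srsf9.

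Srsf6 and Srsf7 were the members that passed in all 6 libraries. Srsf6 (ENSMUSG00000016921, chr2:162931528-162937121), which like Srsf4 and Srsf5 has a pair of RNA recognition motifs and takes part in the choice of alternative exons, had normalized counts of 9726, 9649 and 10683 in PBS and 7738, 7206 and 7206 in the libraries labelled pIpC. Every library labelled pIpC was below every PBS library, and the values within each group lay close together. The mean fell by 26.3%, from 10019 ± 576 to 7383 ± 307 (SD, n = 3). The fitted log2 fold change was -0.44 with a standard error of 0.12 (adjusted p = 0.0284 from limma), and -0.39 without PBS replicate 3 (adjusted p = 0.000707 from limma). Srsf7 (ENSMUSG00000024097, chr17:80200080-80207307), which carries a zinc knuckle beside its RNA recognition motif and acts as an adapter for mRNA export, had 7340, 7956 and 10120 in PBS and 6300, 5501 and 5190 in the libraries labelled pIpC. The groups again did not overlap, and PBS replicate 3 was the highest of all. The mean fell by 33.2%, from 8472 ± 1460 to 5663 ± 573 (SD, n = 3). The fitted log2 fold change was -0.57 with a standard error of 0.16 (adjusted p = 0.0345 from limma), and -0.44 without that library (adjusted p = 0.00267 from limma). No other gene held a near-identical stretch of either transcript (at least 95% over 150 bases), and neither gene's exons overlap another gene.

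Srsf2, Srsf11 and Srsf10 passed only when PBS replicate 3 was left out or under other alternatives. Srsf2 (chr11:116849901-116853094), which binds exonic enhancers and is mutated in myeloid neoplasms, had counts of 8987, 9313 and 8282 in PBS and 7806, 7154 and 7177 in the libraries labelled pIpC. The groups did not overlap, but the log2 fold change of -0.26 (95% interval -0.55 to 0.03) had an adjusted p of 0.135 from limma. It was -0.31 in limma without PBS replicate 3 (adjusted p = 0.00352), and -0.27 with DESeq2 on the recovered reads (adjusted p = 0.0411). Srsf2 shares 460 exon bases (15.6% of its exons) with Mettl23 and 288 (9.74%) with Mfsd11, both on the other strand, so unstranded reads there cannot be assigned. Their own mean normalized counts were 342 and 645, against 8120 for Srsf2.

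Srsf11 (chr3:158010473-158036639), a member that associates with the U2AF factor at the 3′ splice site, had counts of 5408, 5569 and 4303 in PBS and 4334, 4312 and 4374 in the libraries labelled pIpC. PBS replicate 3 lay just below all the libraries labelled pIpC, and the other PBS libraries were above them. The log2 fold change went from -0.22 (95% interval -0.55 to 0.11, adjusted p = 0.250 from limma) to -0.34 without that library (adjusted p = 0.000978 from limma). Srsf10 (chr4:135855747-135869908), which turns into a splicing repressor when it loses its phosphates, as in heat shock, had 4400, 4329 and 3935 in PBS and 4055, 3816 and 3647 in the libraries labelled pIpC. The groups overlapped through PBS replicate 3 and pIpC replicate 1, and the log2 fold change was -0.14 (95% interval -0.41 to 0.14), or -0.19 without PBS replicate 3 (adjusted p = 0.0387 from limma).

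Srsf1, Srsf5 and Srsf3 showed no change that passed. Srsf1 (chr11:88047373-88053755), the founding member of the family, had counts of 10726, 10651 and 12379 in PBS and 12217, 10943 and 10936 in the libraries labelled pIpC. The groups overlapped and their means were 11252 ± 977 and 11365 ± 738 (SD, n = 3). The 95% interval of its log2 fold change ran from -0.30 to 0.34, and without PBS replicate 3 from -0.08 to 0.25. Srsf5 (chr12:80945504-80950507), first described as a gene induced in regenerating liver, had 15445, 14007 and 13279 in PBS and 15520, 13053 and 13973 in the libraries labelled pIpC. The ranges nearly coincided, and the interval ran from -0.34 to 0.33, and without PBS replicate 3 from -0.26 to 0.14. Under several alternatives the fitted sign of Srsf1 or of Srsf5 flips, so neither has a direction here.

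Srsf3 (chr17:29032628-29043373), the smallest SR protein and an export adapter, had 10176, 10569 and 15543 in PBS and 11680, 9672 and 9420 in the libraries labelled pIpC. PBS replicate 3 was far above the other 5 libraries, which overlapped. The log2 fold change was -0.22 (95% interval -0.70 to 0.27) with all libraries and -0.02 without that one. Near-identical stretches were found in 4 other genes, whose summed mean count was 3.32% of that of Srsf3.

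Srsf9 and Srsf4, the least counted members, were those in which PBS replicate 3 mattered most. Srsf9 (chr5:115327177-115333080), a close relative of Srsf1, had 1221, 1182 and 2227 in PBS and 1127, 1066 and 1104 in the libraries labelled pIpC. The groups did not overlap, but PBS replicates 1 and 2 lay just above the libraries labelled pIpC and replicate 3 far above them. The log2 fold change of -0.43 (95% interval -1.02 to 0.17, adjusted p = 0.228 from limma) became -0.13 without PBS replicate 3 (adjusted p = 0.147 from limma). Srsf4 (chr4:131873617-131901706), among the largest SR proteins for its long arginine and serine domain, had 876, 834 and 246 in PBS and 809, 871 and 856 in the libraries labelled pIpC. A single library, PBS replicate 3, was low, and the other 5 lay within a narrow range. Its log2 fold change of 0.58 (95% interval -0.55 to 1.71, adjusted p = 0.372 from limma) turned to -0.02 without that library. The antisense gene Gm12992 covers 1532 bases of the Srsf4 exons (43.0%), with a mean count of 22.4 against 749. Srsf12, a further family gene outside the 10, had 0, 0 and 1 recovered reads in PBS and 2, 6 and 3 in the libraries labelled pIpC, below the filter of a mean normalized count of 10.

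**Figure D2:**
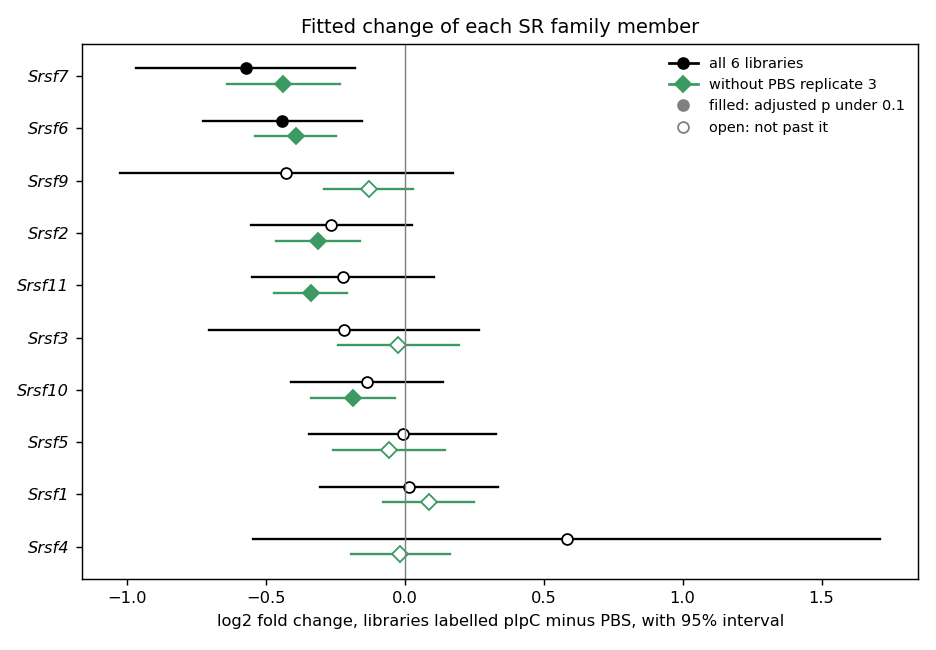
Fitted log2 fold change of each SR family member (libraries labelled pIpC minus PBS) with its 95% limma interval, from all 6 libraries (circles) and without PBS replicate 3 (diamonds), filled where the adjusted p was under 0.1. Srsf6 and Srsf7 are filled in both fits, Srsf2, Srsf10 and Srsf11 only without PBS replicate 3, and the interval of Srsf4 runs from -0.55 to 1.71 with all libraries.

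To compare members with each other, normalized counts were divided by the length of each gene's merged exons, giving normalized counts per kilobase. Srsf5 had the highest level in both groups, 3572 per kilobase in PBS and 3556 in the libraries labelled pIpC, and Srsf4 the lowest, 183 and 237. In PBS the order after Srsf5 was Srsf2 (2995), Srsf7 (2387), Srsf6 (2083), Srsf1 (1971), Srsf3 (1531) and Srsf9 (934), and each neighbour in this run overlapped the next. Srsf11 and Srsf10 followed at 603 each, overlapping each other and apart from their neighbours. In the libraries labelled pIpC the order was Srsf5, Srsf2 (2495), Srsf1 (1990), Srsf7 (1595), Srsf6 (1535), Srsf3 (1299), Srsf9 (665), Srsf10 (548), Srsf11 (514) and Srsf4. There only Srsf7 and Srsf6 overlapped among neighbours. On this scale Srsf1 stood behind Srsf7 and Srsf6 in PBS and ahead of both in the libraries labelled pIpC, which did not hold with the other lengths below.

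The lengths enter these levels, and the place of Srsf1 and Srsf3 depends on them. With the length of the longest protein-coding transcript, an alternative added after the data were seen, Srsf5 remained highest and Srsf4 lowest in both groups, while Srsf3, whose merged exons span 7899 bases against 2618 for its longest coding transcript, moved from rank 6 to rank 3 in PBS and to rank 2 in the libraries labelled pIpC. With these lengths Srsf7 (2357 per kilobase), Srsf1 (2120) and Srsf6 (2093) followed each other in the libraries labelled pIpC, each overlapping the next, so Srsf1 was not ahead of Srsf7.

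Summed over the 10 members, the level per kilobase was 16420, 16338 and 17825 in PBS and 15533, 13825 and 13945 in the libraries labelled pIpC. All 3 libraries labelled pIpC were below all 3 PBS libraries. The means were 16861 ± 835 and 14434 ± 954 (SD, n = 3), a log2 difference of -0.22, and the exact permutation test over libraries gave a two-sided p of 0.1, the smallest it can give here. Leaving out PBS replicate 3 gave a difference of -0.18, where the smallest p is 0.2.

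Each member's share of this summed level is a value within a library and does not depend on the library's size factor. Shares of 1 library sum to a fixed whole, so a larger share of one member lowers the others. Srsf7 had 12.6%, 13.7% and 16.0% in PBS and 11.4%, 11.2% and 10.5% in the libraries labelled pIpC. Srsf6 had 12.3%, 12.3% and 12.5% against 10.4%, 10.8% and 10.7%. Both members were lower in every library labelled pIpC. Srsf1 had 11.4%, 11.4% and 12.2% in PBS and 13.8%, 13.9% and 13.7% in the libraries labelled pIpC. Srsf5 had between 18.7% and 23.6% in PBS and between 23.7% and 25.1% in the libraries labelled pIpC, and both were higher in every library labelled pIpC. The shares of the other 6 members overlapped between the groups. When PBS replicate 3 was left out, the shares of 7 members did not overlap, with Srsf2 and Srsf11 also lower and Srsf3 also higher. Groups come apart more easily with fewer libraries. These counts of members are a description without a test, and no such share was computed for other genes. The same 4 members were apart when lengths of the longest coding transcript were used. As shares of counts not scaled by length, Srsf1, Srsf6 and Srsf7 were apart and Srsf5 was not, as PBS replicate 1, at 20.8%, lay above the lowest library labelled pIpC.

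**Figure D3:**
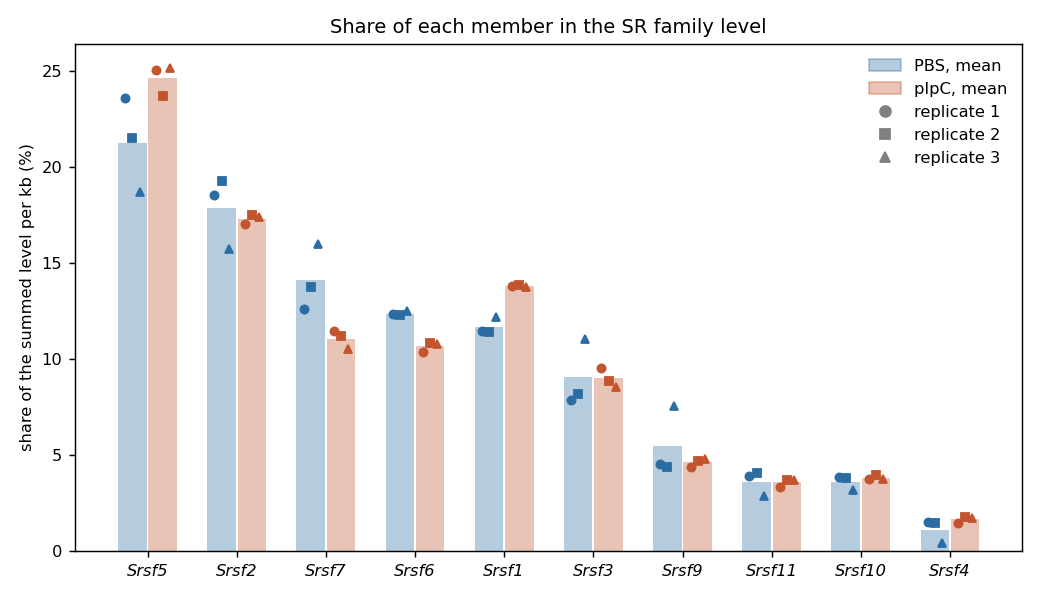
Share of each member in the summed SR family level per kilobase of merged exons (vertical axis, percent of the library's sum), with bars at the group means and points for each library. Srsf1 and Srsf5 are higher, and Srsf6 and Srsf7 lower, in all 3 libraries labelled pIpC than in all 3 PBS libraries.

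Ratios of counts within closely related members restate the same counts inside single libraries (the pairs were chosen after the values were seen, and no test was made). Srsf7 and Srsf6, the members called lower, are denominators here, so these ratios are not separate evidence. No such ratio was computed for other pairs of genes. Srsf3 and Srsf7 belong to a subfamily of short SR proteins, and the ratio of Srsf3 to Srsf7 counts was 1.39, 1.33 and 1.54 in PBS and 1.85, 1.76 and 1.82 in the libraries labelled pIpC. The mean ratio was 1.42 ± 0.107 and 1.81 ± 0.0481 (SD, n = 3), and the groups were apart with and without PBS replicate 3. Srsf5 and Srsf6 share the design with a pair of RNA recognition motifs, and their ratio was 1.59, 1.45 and 1.24 in PBS and 2.01, 1.81 and 1.94 in the libraries labelled pIpC. The groups were again apart. The ratio of Srsf4 to Srsf6 was 0.0900, 0.0864 and 0.0230 against 0.105, 0.121 and 0.119, and that of Srsf4 to Srsf5 overlapped. The ratio of Srsf1 to Srsf9 was 8.79, 9.01 and 5.56 in PBS and 10.8, 10.3 and 9.90 in the libraries labelled pIpC, apart in both cases but with PBS replicate 3 far from the rest.

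**Figure D4:**
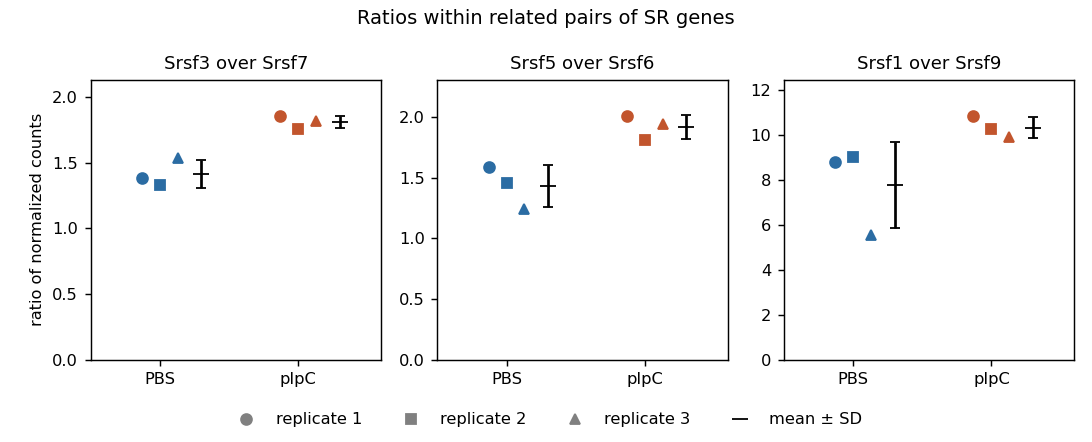
Ratio of normalized counts for 3 related pairs of SR genes (vertical axis, from 0) in each library, with mean ± SD. In each pair the 3 libraries labelled pIpC lie above the 3 PBS libraries, and for Srsf1 over Srsf9 PBS replicate 3 is far below the others, at 5.56.

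The other genes of the pathway were counted in 7 lists, of which 109 genes were tested. Of these, 17 passed, 5 of them above and 12 below PBS, with a list median of -0.03, against the 45.3% of all genes given above. Leaving out PBS replicate 3, 48 passed (65.4% of all genes), 18 higher and 30 lower. Near-identical copies of these genes were not searched, so counts of genes with many processed pseudogenes are uncertain.

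Among the 9 kinases and import factors tested of 10, Srpk2, a kinase that phosphorylates SR proteins in the cytoplasm, was higher and none was lower. Its counts were 1963, 2013 and 1243 in PBS and 3260, 4002 and 3420 in the libraries labelled pIpC, without overlap. The fitted change was 1.06 on the log2 scale with a standard error of 0.21 (adjusted p = 0.00832 from limma), and 0.83 without PBS replicate 3. Tnpo3, the importin that carries phosphorylated SR proteins into the nucleus, was at 0.52 (adjusted p = 0.107 from limma). The lowest of the list were the nuclear kinases Prpf4b at -0.08 and Clk4 at -0.07. Without PBS replicate 3, 5 members of the list passed, 4 higher and 1 lower, among them Tnpo3 at 0.27 and Prpf4b at -0.35.

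Of 23 SR-related coactivators tested of 24, 3 passed, all lower: Srek1, an SR-related regulatory protein, Luc7l, a relative of a yeast U1 component, and Rbm39. Srek1 had 4342, 4450 and 3314 in PBS and 1970, 1964 and 1899 in the libraries labelled pIpC, without overlap and with little spread in the latter. Its change of -1.04 on the log2 scale, with a standard error of 0.15 (adjusted p = 0.00177 from limma), was the lowest of the 7 lists and was -1.18 without PBS replicate 3. Luc7l was at -0.43 (adjusted p = 0.0232 from limma). The highest, the RNA polymerase-associated Scaf4 at 0.38 and the speckle scaffold Srrm2 at 0.36, did not pass. Without PBS replicate 3, Scaf4 was at 0.18 and passed (adjusted p = 0.0546 from limma), Srrm2 turned to -0.18 without passing, and 9 members passed, 2 higher and 7 lower.

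Of 27 hnRNP genes, whose proteins often oppose SR proteins on exons, Hnrnpa1 was lower at -0.49 (adjusted p = 0.0476 from limma) and Hnrnpd higher at 0.28 (adjusted p = 0.0989 from limma), and the list median was 0.01. Hnrnph1, at -0.39, and Hnrnph2, at 0.26, did not pass. With PBS replicate 3 left out, Hnrnph1 passed at -0.57 (adjusted p = 9.89e-05 from limma), Hnrnph2 was at 0.11, and 8 hnRNP genes passed, 2 higher and 6 lower. Of 18 genes for U1 and U2 splice site recognition, 3 were lower: the U2 component Snrpa1 (-0.82), the U1 component Snrpa (-0.64) and Sf3a2 (-0.33), with adjusted p between 0.0659 and 0.0949 from limma. Sf3b1 at 0.30 and Sf3b2 at 0.16, subunits of the U2 particle, were the highest and did not pass. Without PBS replicate 3, Snrpa1 was at -0.42, Snrpa at -0.37 and Sf3a2 at -0.27, all still passing, Sf3b1 was at 0.10, and Sf3b2 passed at 0.21 (adjusted p = 0.0189 from limma). In that fit 12 genes of the list passed, 4 higher and 8 lower.

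None of the 7 Sm core genes, whose proteins form the ring of the spliceosomal particles, passed in limma with all libraries or without PBS replicate 3, or in edgeR or DESeq2 with all libraries, and in each of these fits 0 had an unadjusted p under 0.05. They were all below 0, from Snrpd2 at -0.73 and Snrpg at -0.53 to Snrpf at -0.36 and Snrpd3 at -0.19, and their median of -0.49 became -0.05 without PBS replicate 3. These are short genes, and the summed count of the list was 11626 to 29520 in PBS and 10747 to 13782 in the libraries labelled pIpC, the highest being PBS replicate 3.

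Of 15 genes of the exon junction complex and mRNA export, 4 were lower: Thoc5, Thoc1 and Thoc7 of the THO complex and the helicase Ddx39b. With all libraries Thoc1, Ddx39b and Thoc7 were at -0.53, -0.43 and -0.40, and Thoc5 at -0.71 (adjusted p = 0.0112 from limma). Thoc5 was at -0.59 without PBS replicate 3. The export cofactor Nxt1 at -0.69, Thoc2 at 0.61 and Casc3 at 0.25 did not pass, and the list median was -0.31. With PBS replicate 3 left out, Nxt1 passed at -0.34 (adjusted p = 0.00917 from limma), while Thoc2 was at 0.15 and Casc3 at 0.09 without passing. In all, 9 then passed, 2 higher and 7 lower, and the median was -0.09. Of 10 genes of nonsense-mediated decay, the pathway that poison exons feed, 3 were higher, Smg9 at 0.66 (adjusted p = 0.0396 from limma), Smg8 and Upf2, and Upf3a was lower at -0.81 (adjusted p = 0.0728 from limma). The kinase Smg1 was at 0.61 and the helicase Upf1 at -0.03, without passing, and Smg1 was at 0.06 without PBS replicate 3, where Upf3a was at -0.46 and still passed. In that fit 5 passed, 4 higher and 1 lower. Rbm39, Sf3a2, Thoc1, Thoc7, Ddx39b, Smg8 and Upf2 were named after their values were seen.

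**Figure D5:**
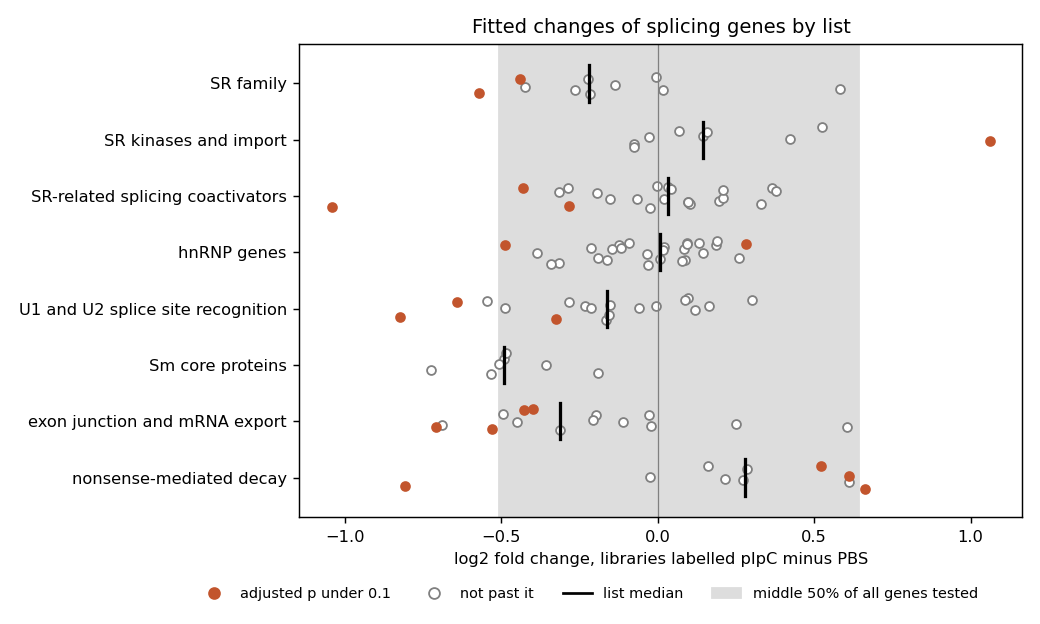
Fitted log2 fold change of each tested gene in the SR family and the 7 other splicing lists (horizontal axis, libraries labelled pIpC minus PBS), filled where the adjusted p was under 0.1, with list medians as bars and the middle 50% of all genes tested as a grey band. Most points lie inside the band from -0.51 to 0.64. Among those outside it are Srpk2 at 1.06 and Srek1 at -1.04, the highest and the lowest, and the member Srsf7 at -0.57.

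The genes whose pattern over the 6 libraries was most like the mean SR family profile were Flad1, Tbc1d13, Cers2, Ddx42 and U2af2, at distances of 0.0589 to 0.0807 between log2 values centred over the 6 libraries. None of them passed, with log2 fold changes between -0.19 and -0.16. The SR family profile itself was 0.10, 0.09 and 0.06 in PBS and 0.00, -0.12 and -0.13 in the libraries labelled pIpC, so that the means over members were higher in PBS and close to each other within it, while single members of PBS replicate 3 lay on both sides of the other PBS libraries.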

How the data were processed

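RNA-seq of 3 PBS libraries and 3 libraries labelled pIpC was used. The authors deposited gene counts normalized by 1 size factor per library, a signal in which 100% of the values above 0 were whole multiples of 1 read within a tolerance of 0.1 read, so reads were recovered. In pIpC replicate 1 the value of 1 read, 0.998, is so close to 1 that an automatic test of this step did not accept it. All 6 library columns were used. The sources differ on how counts were made: the study's methods give nf-core/rnaseq with STAR and RSEM on mm10, and the submitters' processing notes name HISAT2 2.2.1, SAMtools, featureCounts, Subread, edgeR and GRCm38.

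The members and gene lists were chosen with earlier results of these data known. The 15020 genes whose normalized count averaged at least 10 were tested with limma 3.58.1 (R 4.3.3, intensity trend, no block) on log2(normalized count + 1), and called at 0.1 after Benjamini-Hochberg adjustment. The scale understates changes of low genes. Lengths and positions came from GENCODE M21, upstream windows from RefSeq GRCm38.p6, and copies were searched with blastn 2.17.0 (95% identity, 150 bases). The genes named were the members, Brd9, Srsf12, the 2 highest and 2 lowest of each list, 5 of nearest profile and the leukemia and leukocyte markers, with others marked as chosen later.

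Alternatives were pseudocounts of 0.1 and 10, no filter, a mean of at least 50, quantile, TMM and median-centred scaling, each library left out, a replicate block, no intensity trend, edgeR 4.0.16, DESeq2 1.42.0, an adjusted p under 0.05, a 1.5-fold minimum, unscaled lengths, and removal of each library's trend with exon length or GC content. GC content was that of each gene's longest transcript. Coding lengths and the overlap of groups were added after seeing the data. The scripts were tested on simulated data with planted changes larger than those of the members, so recovery of changes of the members' size was not tested. 1 marker gene is not reported here and was left out of its list. Values per exon, protein sequences and other experiments of the study were not used here.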

Additional observations from a re-analysis of the deposited data

How the results depend on the processing

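Over 210 refits of the 10 members, 184 kept their direction and side of the threshold, 8 newly passed, 5 no longer passed and 13 changed sign, all 13 in Srsf1, Srsf5 or Srsf4, which never passed. The count of members changed, 2, was 0 to 5 with 1 library left out (5 without PBS replicate 3, 0 without pIpC replicate 2 or 3). It was 4 with the length trend removed (Srsf10 and Srsf11 added, 51.4% of all genes) and 4 by group ranges that do not overlap. With at least 1.5-fold as well it was 0 in the limma fit of all 6 libraries, but Srsf7 met both rules under some alternatives. With a replicate block the count was 1 (40.6% of all genes). Under the block Srsf6 was at -0.44 with an adjusted p of 0.114 from limma, while Srsf7 passed at 0.0904. The correlations of same-numbered deviations from the group means were -0.12, 0.14 and 0.04. They cannot decide whether replicate numbers pair the libraries, as deviations within a group of 3 depend on each other. With the length trend removed under the block, 3 members passed (46.7% of all genes).

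Srsf1 was at -0.0014 with edgeR, -0.0715 with the GC trend removed, -0.0921 with the length trend removed with or without the block, and between -0.0371 and 0.0866 with 1 library left out. Srsf5 was at 0.0507 with quantile normalization, 0.0218 with median-centred values and between -0.0739 and 0.0528 with 1 library left out, and Srsf4 between -0.016 and 0.899 (the lowest without PBS replicate 3). Quantile normalization moved the median of all genes to -0.12, and its split of genes changed was 3244 higher and 4078 lower. In the limma fit of the normalized counts as deposited the split was 3750 and 3058.

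The 17 genes called in the 7 other lists were 4 to 48 with 1 library left out (48 without PBS replicate 3, and 8, 4 and 5 without pIpC replicates 1, 2 and 3), 11 with the replicate block, 10 without an intensity trend, 10 at an adjusted p under 0.05 and 26 with the length trend removed. Of all genes, 65.4% passed without PBS replicate 3, and 30.5% and 31.0% without pIpC replicates 2 and 3. The block gave 40.6% and removal of the length trend 51.4%. Without pIpC replicate 1, 4943 of 14990 genes passed. Without an intensity trend 6446 of 15020 did, and 5367 of 15020 at an adjusted p under 0.05. Shares that did not overlap, 4 members, numbered 4 to 7 with 1 library left out and 3, without Srsf5, with counts not scaled by length. The summed level stayed between -0.28 and -0.18, and Brd9 between 0.04 and 0.24, without passing in limma. The cause of these differences was not tested. At these depths Srsf12, with at most 6 reads in a library, was too low to test.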
